A study of Drosophila melanogaster with 3 samples.

Results

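One-direction promoter summits are the su(Hw) binding sites of fly embryos that lie close in front of genes reading a single way along the chromosome. They were taken from the thresholded peak list by the position of the peak summit alone. A summit belonged to the set when it lay from 1000 bp upstream to 100 bp downstream of the transcript starts of protein-coding genes of 1 strand only. The set held 1892 of the 6127 thresholded summits, or 30.9% (95% interval 29.7 to 32.1). Another 1227 summits (20.0%) lay in the windows of genes on both strands and are called divergent promoter summits here, and 3008 (49.1%) lay outside all such windows. Intervals of shares are exact binomial (Clopper-Pearson) intervals and, like those of odds ratios, cover counting error only, since neighbouring peaks are not independent. By chromosome the set made up 29.2% of the summits on 3L, the lowest share of the 5 large arms, and 33.0% on 2R, the highest, and it took 10 of 25 summits on chromosome 4. The windows of 1 strand covered 14.5 Mb with 130.8 summits per Mb, those of both strands 2.06 Mb with 594.5, and the rest of the genome 121 Mb with 24.9.

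All data came from 1 group. Chromatin was taken from whole Drosophila melanogaster embryos aged 0 to 24 hours, males and females pooled, in 3 biological replicates. The line was transgenic and stably expressed su(Hw) with GFP (eGFP in other labels) at its C terminus, and the chromatin, sonicated to fragments of 200 to 800 bp, was precipitated with an antibody to GFP, while the antibody label names su(Hw). The values therefore average over all embryonic tissues and stages, and they report the tagged protein. Whether untagged su(Hw) was also present, and how the transgene was driven, is not stated in the sources used. A control was not analysed here, the read depth behind the lists is unknown, and there is no second condition, so sites were compared with other sites and between replicates. The replicate and pooled lists hold 30000 peaks each and reach far into weak signal, and all 3 replicates went into the thresholded one.

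su(Hw) is a zinc finger protein that binds DNA directly and is best known from the insulator of the gypsy retrotransposon, where it acts together with Cp190 and mod(mdg4) to separate enhancers from promoters. It also binds many sites outside gypsy and represses neuronal genes in the female germline. Gene starts in flies carry short core promoter sequences. Among them are the TATA box (TATAAA), the initiator at the start itself (TCAGT), TATCGATA, which is bound by DREF, and GGTCACAC, which is bound by M1BP and common at genes of ribosomal proteins. Pairs of CGATA are bound by the insulator protein BEAF-32, and GAGAGAG by GAGA factor.

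The DNA under the strongest of these summits is shown first, because most of the results turn on which short sequence lies there. All stretches were read from Release 6 of the genome (dm6, RefSeq) and are written 5′ to 3′ in the direction of the gene. In the first set capitals mark an exact match to the 12-base su(Hw) consensus. CG32301 (chr3L:2244250-2244311), SP1173 (chr3L:6703613-6703674), CG33307 (chr2L:13842262-13842323), LysB, a lysozyme gene (chr3L:1206836-1206897), and CG15629 (chr2L:4812398-4812459) held such a match within 100 bp of a summit. In the direction of the gene the first 2 read the consensus backwards and the other 3 read it forwards.
CG32301: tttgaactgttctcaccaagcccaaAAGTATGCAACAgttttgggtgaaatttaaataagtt
SP1173: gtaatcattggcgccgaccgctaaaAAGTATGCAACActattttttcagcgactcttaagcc
CG33307: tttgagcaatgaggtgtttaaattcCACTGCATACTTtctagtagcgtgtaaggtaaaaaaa
LysB: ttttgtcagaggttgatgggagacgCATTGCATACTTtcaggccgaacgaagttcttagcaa
CG15629: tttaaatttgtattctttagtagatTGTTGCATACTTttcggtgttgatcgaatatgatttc

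In the second set capitals mark a core promoter or insulator sequence. Cnx99A, which encodes calnexin (chr3R:29320128-29320185), tw, which encodes a protein O-mannosyltransferase (chrX:784655-784712), and GstZ1, which encodes a glutathione transferase (chr3R:9456560-9456617), held TATCGATA. ND-B17, which encodes a subunit of respiratory complex I (chr2L:15751061-15751118), held GGTCACAC in the direction of the gene. Cln7 (chr3L:7345238-7345294) and CrebB, which encodes a CREB transcription factor (chrX:18366044-18366100), held GAGAGAG, which appears as its reverse complement on the strand of the gene.
Cnx99A: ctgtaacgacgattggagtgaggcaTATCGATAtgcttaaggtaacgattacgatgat
tw: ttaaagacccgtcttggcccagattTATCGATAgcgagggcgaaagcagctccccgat
GstZ1: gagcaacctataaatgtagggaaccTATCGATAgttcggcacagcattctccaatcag
ND-B17: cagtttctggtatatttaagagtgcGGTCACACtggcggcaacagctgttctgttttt
Cln7: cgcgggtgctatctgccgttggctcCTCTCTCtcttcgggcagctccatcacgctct
CrebB: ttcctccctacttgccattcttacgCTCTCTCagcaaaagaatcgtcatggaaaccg

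The third kind of site is shown by toc (chr2L:3108425-3108545), a gene known for its role in oogenesis. Its summit, marked by the capital letter, was the strongest of the set outside annotated exons with more than 1 mismatch to the consensus at its best position.
toc: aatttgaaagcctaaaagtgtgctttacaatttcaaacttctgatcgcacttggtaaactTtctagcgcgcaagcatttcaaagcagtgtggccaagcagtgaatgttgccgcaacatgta

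The strongest one-direction summits were among the strongest of the whole list and stood at like ranks in every replicate. Signals are the values of the authors' peak caller, on a scale the files do not define, and serve only to rank peaks within a list. The strongest of the set, with rank 2 of 6127, lay 775 bp upstream of CG11714 and also in the window of Fuca, the gene of an alpha-L-fucosidase. Its signal was 16606.7 in the pooled list and 4069.4, 4795.1 and 7854.1 in replicates 1, 2 and 3, where it ranked 3, 2 and 2. The summit at ush, the gene of a cofactor of GATA transcription factors, lay 562 bp upstream of a start, with rank 3 and ranks of 2, 3 and 4 in the replicates. The summit with rank 5 lay 985 bp upstream of Polr2I, the gene of an RNA polymerase II subunit, and within the neighbouring gene on the opposite strand, su(Hw) itself. It ranked 5, 4 and 5 in the replicates, with signals of 3599.0, 4363.3 and 7154.5. Since the line carries a su(Hw) transgene and no control was analysed, signal from transgene DNA at this summit could not be told apart from binding. All of the 15 strongest members of the set were among the 6127 strongest peaks of each replicate.

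Of these 15, 6 held an exact consensus within 100 bp. CG32301 ranked 7 in every replicate, with signals of 3478.6, 4169.8 and 6441.3. CG33453 ranked 8, 6 and 6, and SP1173 ranked 17, 15 and 18. CG33307 ranked 32, 22 and 20, LysB 20, 20 and 40, and CG15629 69, 64 and 47. The other strong exact matches were at CG13707, 630 bp upstream, with ranks of 53, 66 and 78, and at Gdap2, 817 bp upstream, with ranks of 67, 71 and 77. CG11714, TER94, which encodes the ATPase p97, and Shrm, which encodes the actin regulator Shroom, had a best match with 1 mismatch. At ush, Polr2I and CG7049 the best match had 2 mismatches. At toc, at Fatp3, which encodes a fatty acid transport protein, and at the summit shared by mei-W68, the enzyme that makes meiotic DNA breaks, and par-1, a polarity kinase, it had 3. High ranks thus occurred both with and without a consensus of up to 1 mismatch. This count does not show that shorter parts of the su(Hw) sequence were absent. TGCATA, the core of the consensus, was within 100 bp of the summits at toc and Fatp3. It was not found at ush, Polr2I, CG7049 or the summit of mei-W68 and par-1. The summit at ush nevertheless lay near AAGTATGC, the reverse complement of GCATACTT, which overlaps the consensus and is described under the other observations.

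The set was recovered in each replicate about as often as the rest of the list. A summit is called top-ranked in a replicate when 1 of the 6127 strongest peaks of that replicate lay within 200 bp. Among the 1892, 1282 (67.8%, 65.6 to 69.9) were top-ranked in all 3 replicates, beside 69.3% of the whole list. Another 427 were top-ranked in 2 replicates, 168 in 1 and 15 in none of them. For divergent promoters the share was 69.5%, an odds ratio of 0.921 (0.786 to 1.08). Its adjusted p was 0.305 in a two-sided Fisher's exact test, with Benjamini-Hochberg adjustment over 4 comparisons of rank and replicates. Without replicate 2 the odds ratio was 0.833 (adjusted p = 0.0399 by the same exact test), and with summits matched within 100 bp it was 1.03, so its direction was not stable. Outside promoters the share was 70.3% (odds ratio 0.889, 0.784 to 1.01, adjusted p = 0.0867 by the same exact test). Replicates 1, 2 and 3 held 83.4%, 85.2% and 88.7% of the set among their 6127 strongest peaks, and 98.6%, 98.6% and 99.2% of it at any rank.

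Some summits shared a replicate peak with a stronger neighbour, since summits can lie about as close as the 200 bp allowed for a match. At 177 of the 1892 (9.36%) the best rank in at least 1 replicate was that of a peak nearer to another thresholded summit. With each replicate peak counted only for its nearest summit, an alternative chosen after seeing the data, 64.3% of one-direction, 64.5% of divergent and 66.9% of outside summits were top-ranked in all 3 replicates. The odds ratio against divergent promoters was then 0.992 (0.851 to 1.16, adjusted p = 0.939, exact test).

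The 5 summits whose ranks differed most between replicates were all of this kind. The summit 246 bp upstream of spir, the gene of an actin nucleator, took its rank of 74 in replicate 2 from a stronger neighbouring summit, which ranked 88, 74 and 69. Its own nearest peaks ranked 5965, 28179 and 1742. At Gga the summit had no peak in replicate 2 and own ranks of 8095 and 2371 in replicates 1 and 3. At kmr the own ranks were 6157, 22869 and 6975, and at CG14196 they were 15908, 5682 and 1925. CG6293 had no peak in replicate 1 and own ranks of 4045 and 2732 in replicates 2 and 3. The weakest summits of the set were at Pgant1, Gdh, the gene of glutamate dehydrogenase, and CHES-1-like, the gene of a forkhead transcription factor, with ranks of 6125, 6126 and 6127. Gdh ranked 16542, 18589 and 3669 in the replicates, and the CHES-1-like summit had no peak of its own in replicate 2 and ranked 8731 and 1898 in replicates 1 and 3.

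One-direction summits were densest in the 200 bp before the start. The median position was 207 bp upstream of the nearest start, with quartiles at 443 and 88.8 bp upstream. The direction of the gene made little difference: the median was 199 bp upstream for 923 summits of plus strand genes and 222 bp for 969 of minus strand genes. Per 100 bp of distance, 405 summits lay 100 to 200 bp upstream of the start and 364 lay 1 to 100 bp upstream. Farther out there were 248 at 200 to 300 bp, 160.5 per 100 bp at 300 to 500 bp, 99.2 at 500 to 750 bp and 61.2 at 750 to 1000 bp. From the start to 100 bp downstream there were 151.5. The window itself sets the range, and 87 of the summits lay within 50 bp inside its edges, while a window wider by 50 bp at each end would add 57.

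**Figure D1:**
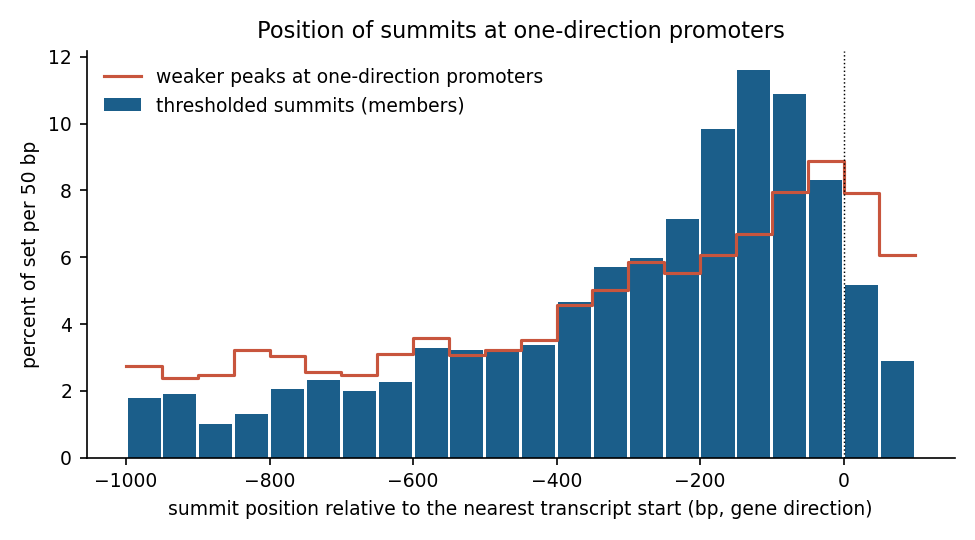
Position of summits relative to the nearest transcript start, in bp along the gene, as percent of each set per 50 bp; bars are the 1892 one-direction summits and the line the 3969 weaker peaks in the same windows. The bars are highest between 150 and 100 bp upstream, with 11.6% of the set, and the line is highest in the last 50 bp before the start, with 8.89%.

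Weaker peaks in the same windows were spread more widely. They were 3969 pooled peaks found over 1000 bp from any thresholded summit and in windows of 1 strand. Their median position was 260 bp upstream, with the outer quartile at 558 bp, beyond the 207 and 443 bp of the thresholded summits. They nevertheless lay within 100 bp of a start in 30.8% (29.4 to 32.3) of cases, beside 27.3% (25.3 to 29.4) of the thresholded summits, and within 50 bp in 17.0% beside 13.6%. Since position chose both sets and the order turned with a wider window, these shares are a description. Thresholded summits were rare in coding exons, which held 15 (0.793%), against 7.08% of the weaker peaks. Other exons held 15.5% against 23.5%, introns 31.2% against 33.4% and sequence between genes 52.5% against 36.0%. These 4 shares were not tested.

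One-direction and divergent promoter summits carried different sequences. They also differed in position: divergent summits lay at a median of 91 bp upstream of the nearest start, one-direction summits at 207 bp. The classes were not compared at like distances, so the part of distance in these differences was not tested. Divergent promoters without a summit were not read. Whether the 2 kinds of promoter differ in the same way without a summit was therefore not tested. Each sequence was searched no more than 100 bp from the summit on either strand. The 14 comparisons of sequences share 1 Benjamini-Hochberg adjustment of two-sided Fisher's exact tests. The su(Hw) consensus, 1 mismatch allowed, was at 265 one-direction summits (14%, 12.5 to 15.7), at 7.74% (6.31 to 9.38) of divergent summits and at 32.0% (30.4 to 33.7) of summits outside promoters. The odds ratio was 1.94 (1.51 to 2.51, adjusted p = 8.31e-08, exact test) against divergent promoters and 0.345 (0.296 to 0.402, adjusted p = 4.70e-47, exact test) against summits outside. Exact matches were at 77 one-direction summits (4.07%), at 1.22% of divergent ones and at 11.3% of those outside. The core TGCATA was at 17.6%, 14.2% and 31.0%. With the list divided by rank into 3 parts of equal size, the shares were 24.8% and 12.2% in the strongest part (odds ratio 2.38). They were 10.1% and 6.77% in the middle part (1.55, adjusted p = 0.0784, exact test) and 7.13% and 5.29% in the weakest (1.37, adjusted p = 0.248, exact test). These p-values were adjusted over the 3 parts, separately from the 14 comparisons. The odds ratios of the 3 parts had overlapping intervals, and the difference between the parts was not tested.

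BEAF-32 pairs, counted where CGATA lay at least 2 times within 40 bp on either strand, went the other way. They were at 208 one-direction summits (11%, 9.62 to 12.5), at 23.2% (20.9 to 25.7) of divergent summits and at 1.66% of summits outside promoters. The odds ratio was 0.408 (0.334 to 0.499, adjusted p = 3.41e-19, exact test) against divergent promoters and 7.30 (5.31 to 10.2, adjusted p = 9.06e-45, exact test) against summits outside. TATCGATA, a palindrome with CGATA on each strand and therefore counted as a pair too, made up 94 of the 208. It was at 4.97% of one-direction, 12% of divergent and 0.499% of outside summits. The M1BP sequence GGTCACAC was at 4.12%, 6.68% and 0.233%. Its odds ratio against divergent promoters was 0.601 (0.431 to 0.837, adjusted p = 0.00237, exact test), but 0.876 (adjusted p = 0.668, exact test) when the sequence had to lie within 50 bp of the summit.

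Most of the strongest summits with these promoter sequences had like ranks in the replicates. At CG43066, 487 bp upstream, the summit held both TATCGATA and GGTCACAC, with ranks of 58, 60 and 70 and signals of 1873.7, 2137.0 and 3155.4. Cnx99A, 548 bp upstream, ranked 139, 176 and 128, and tw, 150 bp upstream, ranked 226, 209 and 206. Both also held an exact su(Hw) consensus. GstZ1, 70 bp upstream, ranked 380, 345 and 320 and had a best consensus match with 2 mismatches. Ugt36A1, a glycosyltransferase gene with its summit 4 bp upstream of the start, had rank 461 in the thresholded list, and its own nearest peaks ranked 493, 497 and 423 in the replicates. With GGTCACAC, CG30103 ranked 418, 358 and 299.

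GAGAGAG stood apart from these. It was at 111 one-direction summits (5.87%, 4.85 to 7.02) and at 1.06% (0.565 to 1.80) of divergent summits, an odds ratio of 5.82 (3.25 to 11.3, adjusted p = 6.64e-13, exact test). The difference was present in each part of the list by rank, with 5.54% against 0.915% in the strongest part, 6.32% against 1.20% in the middle and 5.77% against 1.01% in the weakest. Against the 4.36% of summits outside promoters the odds ratio was only 1.37 (1.05 to 1.79, adjusted p = 0.0211, exact test), and this was lost under several alternatives, among them leaving out replicate 1 (1.33, adjusted p = 0.0561, exact test). One-direction promoters with no summit held GAGAGAG in 5.12% of cases, which is close to the share at the summits.

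Each replicate gave the same order of classes when its own 6127 strongest peaks were used in place of the thresholded list. The consensus, 1 mismatch allowed, was at 15%, 13.9% and 13.3% of one-direction summits in replicates 1, 2 and 3, and at 7.43%, 7.52% and 7.73% of divergent summits. The means were 14.1% ± 0.877 and 7.56% ± 0.153 (SD, n = 3). BEAF-32 pairs were at 10.0%, 11.8% and 9.91% of one-direction and at 21.5%, 23.5% and 21.7% of divergent summits. GGTCACAC was at 3.6%, 4.88% and 3.74% against 6.54%, 8.01% and 6.66%. GAGAGAG was at 6.22%, 6.72% and 6.64% against 0.969%, 1.55% and 1.15%. For none of these 4 sequences did the values of the 2 classes overlap between replicates. The share of the list at one-direction promoters was 30.7% ± 0.657 (SD, n = 3). Base composition also differed between classes, with a median GC content within 100 bp of the summit of 37.3% at one-direction, 34.3% at divergent and 37.8% at outside summits, and its part in these results was not tested.

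**Figure D2:**
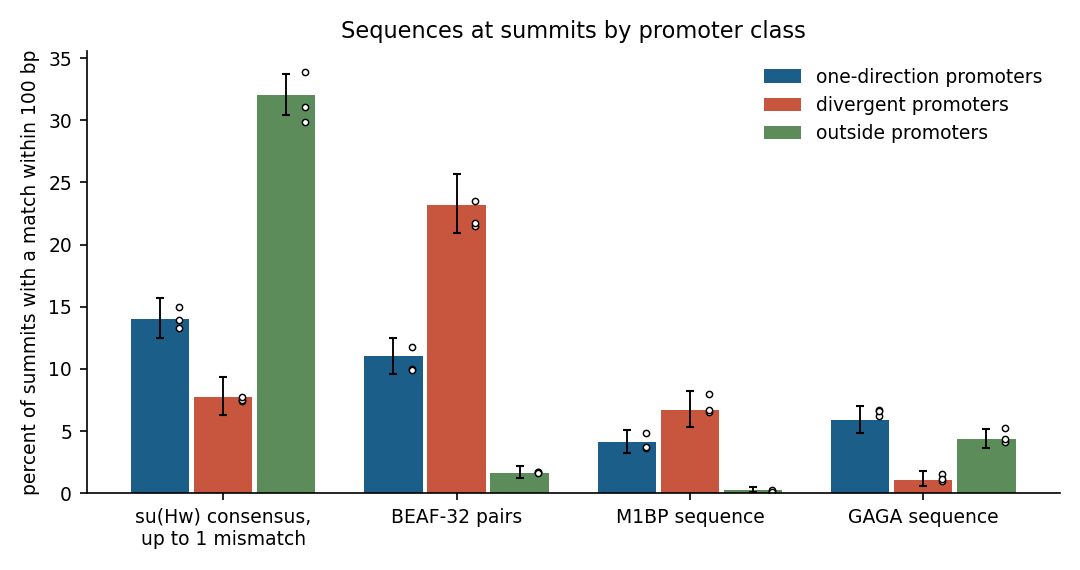
Percent of summits with each sequence within 100 bp, by class; bars are the thresholded list with exact 95% intervals, and open circles the 3 replicates' own 6127 strongest peaks. One-direction summits lie between the other classes for the su(Hw) consensus (14%) and BEAF-32 pairs (11%), and for GAGAGAG far above divergent summits (5.87% against 1.06%).

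Promoters without a summit served as the background of promoter sequence. In 7381 one-direction promoters over 1000 bp from any thresholded summit, the window of the same length was centred 100 bp upstream of the first start. It held an exact consensus in 0.271% of cases, and in 5.53% when 1 mismatch was allowed, below the 4.07% and 14% at the summits. TGCATA was in 11.4%, BEAF-32 pairs in 8.49%, TATCGATA in 3.98% and GGTCACAC in 1.65%. The summits were spread over the whole promoter window and often lay at later starts, so the background and the summits were read at unlike positions. The weaker peaks at one-direction promoters held the consensus, 1 mismatch allowed, in 6.22%, BEAF-32 pairs in 8.72% and GGTCACAC in 3.30%. Most one-direction summits, 1282 or 67.8%, held none of the consensus with up to 1 mismatch, a BEAF-32 pair, GGTCACAC or GAGAGAG, which says only that these letters were not in the window. Few held the consensus together with another of these: 14 with a BEAF-32 pair, 6 with GGTCACAC and 11 with GAGAGAG.

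Distance from the start separated the sequences within the set. With 1 mismatch allowed, the consensus lay at 26.1% (19.4 to 33.9) of summits 750 to 1000 bp upstream, at 21.0% from 500 to 750 bp and at 16.8% from 300 to 500 bp. It was at 11.3% from 200 to 300 bp, at 12.1% from 100 to 200 bp, at 7.42% (4.94 to 10.6) in the last 100 bp and at 9.80% downstream of the start. Among weaker peaks it varied only between 4.50% and 7.41% over the same distances. BEAF-32 pairs were at 0.654% of summits 750 to 1000 bp upstream, at 11.1% from 100 to 200 bp and at 28.6% (24.0 to 33.5) in the last 100 bp. Weaker peaks in the last 100 bp held such pairs about as often, in 25.7% of cases. GGTCACAC was at 12.4% (9.16 to 16.2) of summits in the last 100 bp, at 8.50% downstream of the start and at no more than 2.47% at any distance farther upstream. Weaker peaks showed a like course, with 10.3%, 5.95% and no more than 2.37%. GAGAGAG had its highest share, 8.40% (5.88 to 11.5), from 100 to 200 bp, and the intervals of its other shares overlapped with this one.

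**Figure D3:**
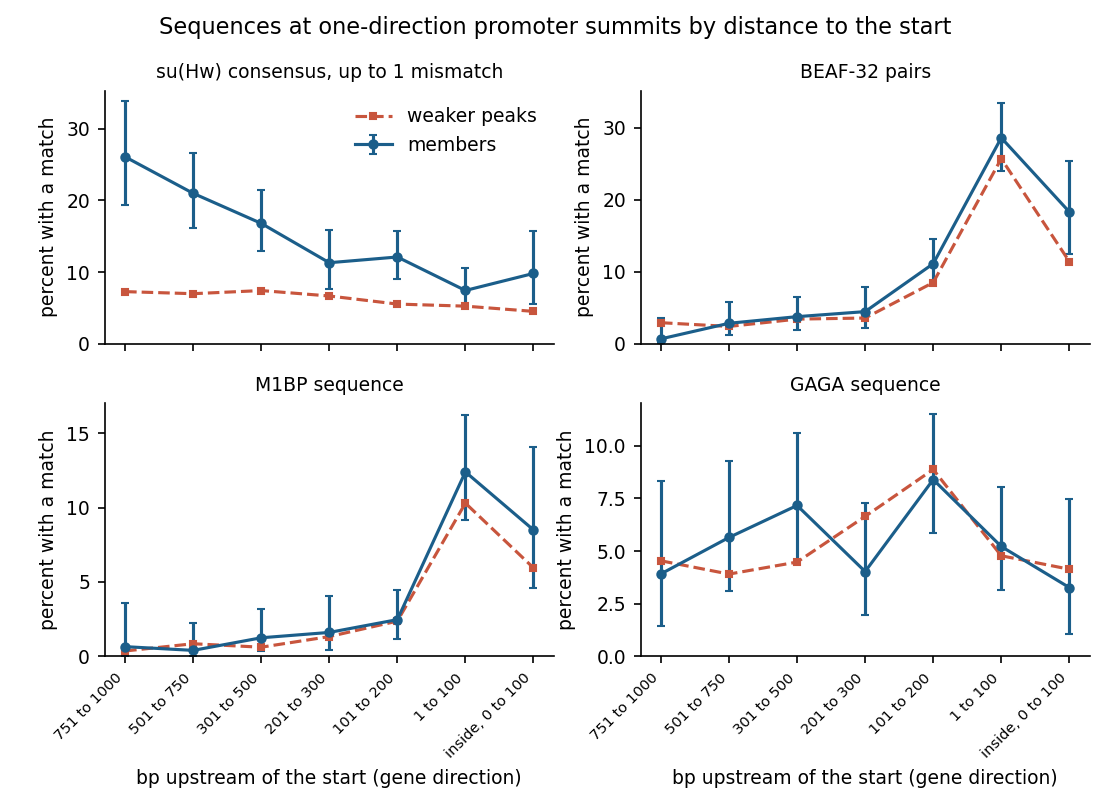
Percent of summits with each sequence within 100 bp, by distance to the start in bp along the gene, with exact 95% intervals; circles are one-direction summits and squares the weaker peaks in the same windows. The su(Hw) consensus falls from 26.1% to 7.42% towards the start in the thresholded set while the weaker peaks stay at or below 7.41%, and BEAF-32 pairs reach 28.6% in the last 100 bp in the former and 25.7% in the latter.

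Strength and distance moved together. The median signal was 512.6 for summits 750 to 1000 bp upstream and 310.4 for those downstream of the start, and the share top-ranked in all 3 replicates was 79.1% and 51.0%. The strongest decile of the list, 613 peaks, took 17.6% of the summits 750 to 1000 bp upstream and 3.27% of those downstream. Distance and sequence were therefore also read within parts of the list by rank. In the strongest part 1 mismatch or fewer was seen at 33.2% (28.0 to 38.8) of 310 summits over 300 bp upstream and at 15.9% (11.4 to 21.4) of 226 within 200 bp upstream or past the start. In the middle part the shares were 12.9% and 9.0%, and in the weakest 7.88% and 7.01%, and the intervals of the far and near shares lay apart only in the strongest part. BEAF-32 pairs differed with distance in all 3 parts, with 1.94% and 11.9% in the strongest, 2.87% and 18.6% in the middle and 3.94% and 23.9% in the weakest. These shares are descriptions and were not tested.

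Seen along the list by strength, the consensus became rarer while BEAF-32 pairs and GGTCACAC became more frequent. The set took 189 of the 613 strongest peaks and 200 of the 612 weakest, so its share hardly moved. A consensus with no more than 1 mismatch lay at 44.4% (37.2 to 51.8) of the 189 strongest one-direction summits, at 21.1% in the next decile of the list, at 13% in the third and at 6.5% (3.51 to 10.9) in the weakest. That last share was close to the 6.22% of weaker peaks at one-direction promoters and the 5.53% of promoters without a summit. Exact matches went from 17.5% to 1.5%. BEAF-32 pairs rose from 3.70% (1.5 to 7.48) to 16.0% (11.2 to 21.8) and GGTCACAC from 1.59% to 5.5%. The median position moved from 348 bp to 133.5 bp upstream. GAGAGAG had 4.76% in the strongest and 3.50% in the weakest decile, with its highest value, 8.90%, in the seventh.

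**Figure D4:**
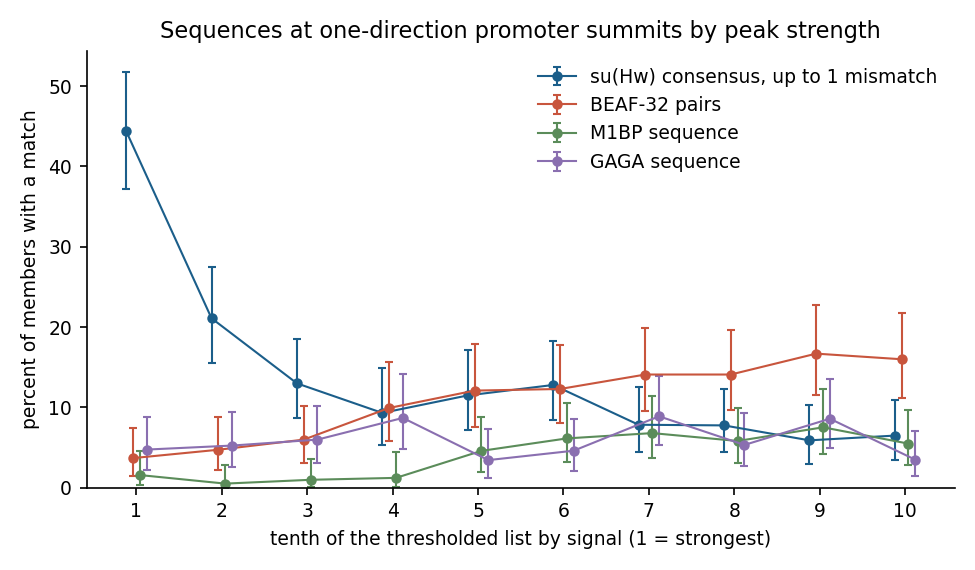
Percent of one-direction summits with each sequence within 100 bp, by decile of the thresholded list (1 is the strongest), with exact 95% intervals. The su(Hw) consensus falls from 44.4% to 6.5%, and BEAF-32 pairs go from 3.70% to 16.0%.

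One-direction summits were more often strong than divergent ones. The strongest decile of the list held 189 of the 1892 (9.99%, 8.67 to 11.4) and 47 of the 1227 divergent summits (3.83%, 2.83 to 5.06), an odds ratio of 2.79 (2.00 to 3.95, adjusted p = 1.70e-10, two-sided Fisher's exact test, Benjamini-Hochberg over 4 comparisons). Their median signals were nearly equal, 395.5 and 394.9. The third quartiles were 694.0 and 568.9 and the first quartiles 291.8 and 301.9, so one-direction signals spread more widely on both sides. Of the summits outside promoters 12.5% were in the strongest decile. The odds ratio of one-direction against outside summits was 0.775 (0.64 to 0.935, adjusted p = 0.0135, exact test), a difference that was lost without replicate 2 (0.808, adjusted p = 0.0538, exact test) and with a wider promoter window (0.892, adjusted p = 0.382, exact test).

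Because all starts in the window of such a summit read the same way, the direction of the consensus could be set against the direction of the gene. Of the 265 summits with a consensus of up to 1 mismatch, 117 had it in the direction of the gene, 138 against it and 10 on both strands. The share in the direction of the gene was 45.9% (39.6 to 52.2), and a two-sided exact binomial test against equal shares gave p = 0.21. For exact matches the counts were 34 and 42 (44.7%, 33.3 to 56.6, p = 0.422, exact binomial test). The median distance of the consensus from the summit was 25.5 bp, with 80.0% of summits having it within 50 bp, and for exact matches the median was 16.5 bp. The median distance from the summit was 39.5 bp for TATCGATA and 44.5 bp for GGTCACAC, and their median positions were 49.5 and 19.5 bp upstream of the start. GGTCACAC read in the direction of the gene at 52 summits and against it at 24, and GAGAGAG at 48 and 59.

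The starts themselves differed between genes with and without a one-direction summit. The 1576 genes with one were compared with 7539 one-direction genes with no summit in any of their windows, at the start nearest to the summit or at the first start. The TATA box, sought 45 to 15 bp upstream, was at 77 starts with a summit (4.89%, 3.87 to 6.07) and at 11.6% (10.9 to 12.4) of starts without, an odds ratio of 0.391 (0.304 to 0.498, adjusted p = 4.97e-17, two-sided Fisher's exact test, Benjamini-Hochberg over 4 sequences at starts). GGTCACAC, sought from 150 bp upstream to 50 bp downstream, was at 7.61% against 3.57% (2.23, 1.77 to 2.79, adjusted p = 4.81e-11, exact test), but its odds ratio was 1.36 (adjusted p = 0.127, exact test) for the strongest 3063 peaks. TATCGATA was at 7.04% against 4.70% (1.54, 1.22 to 1.92, adjusted p = 2.64e-04, exact test). This call was lost in smaller sets. For the strongest 3063 peaks the odds ratio was 0.91 (adjusted p = 0.662, exact test), and keeping only peaks found in pairs of replicates gave 1.20 to 1.30, none of which passed. The initiator sequence TCAGT was at 16.0% against 15.2% (1.06, 0.913 to 1.24, adjusted p = 0.419, exact test), and its direction turned with the window and the choice of start.

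The 1892 summits fell to 1576 of 13968 protein-coding genes, or 11.3%, while 26.4% had a summit in a promoter window of any kind. Most genes, 1262, had 1 such summit, 267 had 2, 39 had 3, 4 had 4 and 4 had 5, and 99 also had a divergent summit. Nearly all summits, 1836 or 97.0%, lay in the windows of 1 gene. Genes with a summit had a median of 2 transcript starts and a length of 5138 bp, against 1 start and 2164.5 bp over all genes, and each further start adds a window. The genes with most were Pde8, a cyclic nucleotide phosphodiesterase, Rtnl1, a reticulon, SNF4Agamma, the gamma subunit of AMP-activated kinase, and l(3)neo38, each with 5, and Atpalpha, the alpha subunit of the sodium pump, with 4. These genes had 3 to 11 starts. At Rtnl1 the 5 summits had ranks from 497 to 3007, and at SNF4Agamma from 2505 to 6069. Of the 1070 summits nearest to a gene with several starts, 501 (46.8%) were nearest to its first start and the rest to a start farther inside the gene.

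Neighbouring genes on the same strand were often near. Of the 1892 summits, 710 (37.5%) lay between genes with the upstream neighbour on the same strand, at a median of 377 bp from that neighbour, and 412 of these within 500 bp of it. The strong summit at CG7049, with rank 35 and ranks of 39, 40 and 25 in the replicates, was 28 bp from the gene before it. Another 282 (14.9%) had an upstream neighbour on the opposite strand, at a median of 3389.5 bp, and 16.0% of these were in the strongest decile. The rule itself removes near neighbours of this kind, since a summit up to 1000 bp upstream of starts on both strands is called divergent. The distances to neighbours of the same and the opposite strand are therefore not comparable, and neither was set against a background. A further 627 (33.1%) lay inside the gene of the window itself, either in front of a later start or just past a start. Those inside another gene numbered 167 (8.83%) on the opposite strand and 101 (5.34%) on the same strand. BEAF-32 pairs were at 16.1% of summits behind a neighbour of the same strand and at 7.81% of those inside their own gene, and GAGAGAG at 4.65% and 8.13%. Only 3 summits had a start of a non-coding transcript on the other strand in the same window.

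Counted over genes, the share with a one-direction summit differed with the gap between the gene start and the gene upstream. A summit at any start of the gene was counted, so not all of these summits lay in that gap. Of the 1892 summits, 627 lay inside the gene of their window. Genes behind a neighbour on the same strand had one in 13.4% (11.6 to 15.2) of cases for gaps under 250 bp, in 25.3% (22.7 to 28.0) from 250 to 500 bp, in 21.5% from 500 to 1000 bp and in 19.9% from 1000 to 2000 bp. For longer gaps the share was 15.3% from 2000 to 5000 bp and 9.95% (8.03 to 12.2) from 5000 bp. Over all 5294 such genes it was 17.4%, beside the 11.3% of all genes. The latter include 6580 genes with a neighbour on the other strand, of which 7.31% had one. Genes with a neighbour on the other strand had one in 3.02% to 4.17% of cases below 1000 bp, where the windows of both genes mostly overlap and the rule leaves little room, and in 13.5% to 16.4% above. Genes whose start lay inside another gene had one in 8.25% of 2085 cases. These shares are given without a test.

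**Figure D5:**
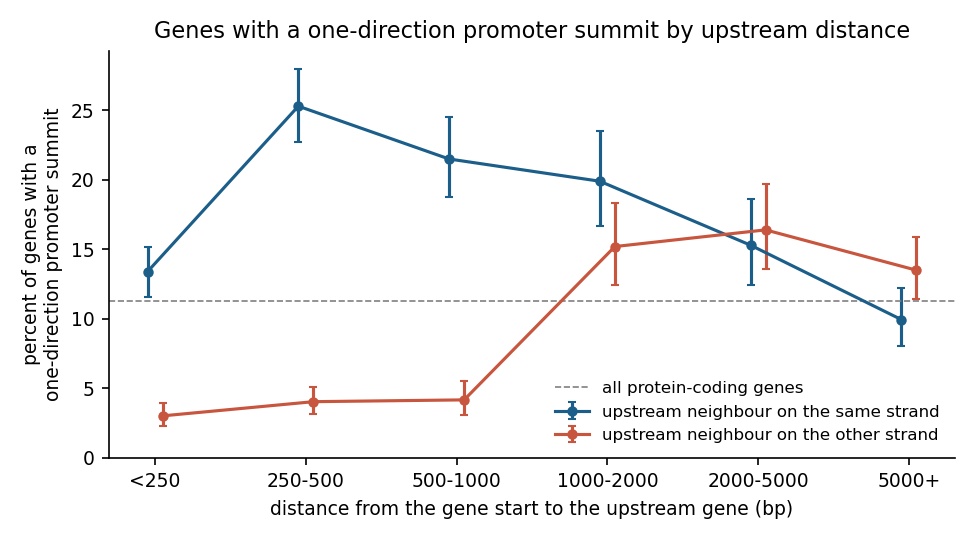
Percent of protein-coding genes with a one-direction summit, by the distance in bp from the gene start to the gene upstream and by the strand of that gene, with exact 95% intervals; the dashed line is the 11.3% of all protein-coding genes. Genes behind a neighbour on the same strand peak at 25.3% for gaps of 250 to 500 bp, and those with a neighbour on the other strand stay at or below 4.17% up to 1000 bp, where the rule itself limits them. A summit at any start of the gene is counted, also outside the gap.

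Gene groups, listed by symbol, were read against the 11.3% of all genes, with no test. Genes of cytosolic ribosomal proteins, counted by the symbols RpL, RpS and sta, had a one-direction summit in 27 of 93 cases (29.0%, 20.1 to 39.4). Their strongest were RpL23A with rank 840, 82 bp upstream, RpL30 with rank 903, 16 bp upstream and with GGTCACAC, and RpL22 with rank 1145. RpL30 ranked 982, 941 and 896 in the replicates, and RpL37A, with GGTCACAC as well, ranked 1762, 1190 and 1634. Of the 93 cytosolic genes, 73 (78.5%) had a promoter summit of some kind, beside 26.4% of all genes, and 47 had a divergent one. Over all genes, 3685 had a promoter summit of some kind, and 1477 of these had one-direction summits only. Mitochondrial ribosomal proteins had a one-direction summit in 2 of 73 cases (2.74%, 0.334 to 9.55), mRpL10 and mRpL13, although 35 of the 73 had a promoter summit of some kind, 33 of them divergent. Translation initiation factors had one in 8 of 44 (18.2%), led by eIF6 with rank 895 and TATCGATA. Cyclins and Cdks had one in 5 of 21 (23.8%, 8.22 to 47.2), led by CycG with rank 784, CycE with rank 1787 and Cdk4 with rank 2918. Heat shock genes had one in 5 of 25 (20.0%, 6.83 to 40.7), led by Hsp27 with rank 945, Hsp26 with rank 2767 and Hsp22 with rank 4436, which lie near each other on 3L. The intervals of the last 3 groups include the share of all genes.

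Other groups were near or below that share for one-direction summits, but not all of them for promoter summits of any kind. Such a summit was at 41.9% of Rab GTPases, 37.5% of complex I subunits and 31.2% of proteasome genes, beside 26.4% of all genes. Among the genes with such a summit, 9 of 13, 13 of 15 and 12 of 15 had a divergent one. So did most of all genes with a promoter summit. Receptors of smell and taste, odorant binding proteins, cuticle proteins and segmentation genes were below the share of all genes for promoter summits of any kind too. Rab GTPases, which direct membrane traffic, had a one-direction summit in 4 of 31 cases (12.9%), led by Rab32, Rab5 and Rab11. Subunits of complex I had one in 3 of 40 (7.50%), and ND-B17 was by far the strongest, with rank 203, an exact consensus and GGTCACAC, and ranks of 197, 203 and 208 in the replicates. Proteasome subunits had one in 3 of 48 (6.25%), Rpn10, Prosalpha5 and Rpn1, none of which was top-ranked in all 3 replicates. Receptors of smell and taste, which are expressed in sensory neurons, had one in 1 of 179 cases (0.559%, 0.0141 to 3.07), at Gr28b with rank 4899, and 4 of the 179 had a promoter summit of any kind. Odorant binding proteins had one in 2 of 51 (3.92%), and Obp56b had a strong one with rank 207. Cuticle proteins had one in 3 of 70 (4.29%, 0.893 to 12), yet Cpr62Ba and Cpr67Fb ranked 200 and 513. Segmentation genes had one in 2 of 25 found in the annotation (8.0%), at nkd with rank 3550, 120 bp upstream, and pan with rank 5368.

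Among the insulator proteins 2 of 19 genes (10.5%, 1.30 to 33.1) had a one-direction summit, close to the 11.3% of all genes. A promoter summit of any kind was at 6 of the 19 (31.6%), beside 26.4% of all genes, and 4 had a divergent one. CTCF, a zinc finger insulator protein, had one 25 bp downstream of its start, with rank 2413, ranks of 3084, 2086 and 3261 in the replicates and a TATCGATA. BEAF-32 had one 21 bp upstream, with rank 3100 and ranks of 3067, 2756 and 4084. Neither had a consensus with up to 1 mismatch within 100 bp. Cp190 had a divergent promoter summit only, and mod(mdg4) and su(Hw) had no summit in their own promoter windows. Rbp9, a neuronal RNA binding protein gene, had 1, at 892 bp upstream with rank 2179 and a GAGAGAG, and its own nearest peaks ranked 2581, 2914 and 2257 in the replicates.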

How the data were processed

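ChIP-seq peaks of su(Hw)-eGFP in the dm6 build were taken as the authors deposited them: a list for each of the 3 replicates, one for all together, and the optimal list of peaks that pass the irreproducible discovery rate threshold. The dm3 lists were not used. The signal of each peak is the deposited value of the authors' peak caller, on an undefined scale. The −log10 q-values deposited by the authors were not used for ranking, since 1442 of the 1892 summits shared the highest. Not given in the sources used here are aligner, peak caller, threshold and depth; a control was not analysed here.

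Summits were placed on Ensembl annotation release 115, and sequence was read from Release 6 of the genome. No peak lay beyond a chromosome end, and 105 of the summits shared their interval with another. The best-ranked replicate peak within 200 bp was matched. Classes were set against each other with Fisher's exact test (two-sided), and p-values were adjusted by Benjamini-Hochberg over 14 comparisons of sequence, 4 of rank and 4 at starts, with adjusted values under 0.05 called. The consensus was 12 bases long.

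Alternatives changed the promoter window, the part of the list, merging of summits, the sequence window and the matching distance, and left out each replicate by keeping thresholded peaks top-ranked in both others, which also adds a filter. Named genes were those of the 15 strongest summits, the 8 strongest with an exact consensus, the 5 strongest with TATCGATA and with GGTCACAC, the 5 with most summits, the 5 whose ranks differ most, the 3 weakest, up to 3 per gene list, and 6 fixed genes. The sites printed for GAGAGAG and at toc were chosen after their values were seen. The summits, sequences and gene lists were chosen with earlier results of these data known. The functions were tested on simulated data. Python 3.11.15, numpy 2.4.6, pandas 2.3.3, scipy 1.17.1 and matplotlib 3.10.9 were used.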

Additional observations from a re-analysis of the deposited data

How the results depend on the processing

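Values below are odds ratios unless a percent is given, with adjusted p by Fisher's exact test. The share of the list at one-direction promoters was 26.8% with windows from 500 bp upstream to 50 bp downstream and 35.3% with 2000 bp upstream to 500 bp downstream. The consensus against divergent promoters was lost in the middle (1.55) and weakest (1.37) parts of the list, and GGTCACAC within 50 bp of the summit (0.876). GAGAGAG against outside summits was lost in the strongest 3063 peaks (1.45), with summits merged (1.23) and within 50 bp (1.10), and leaving out a replicate gave 1.33 to 1.42. The strongest decile against outside summits was lost with the wider window (0.892) and in the strongest 3063 peaks (0.818), and ranged from 0.764 to 0.808 without a replicate. Top-ranking in all 3 replicates against divergent promoters was 0.811 (p = 0.0168, exact test) with the narrower window, 1.57 in the strongest 3063 peaks, 1.03 with matching within 100 bp, and 0.833 to 0.987 without a replicate. Nearness to the start, thresholded against weaker peaks and a description since position chose the summits, was 1.11 with the wider window and 0.887 with summits merged. At starts, TCAGT was 0.971 with the narrower window, 1.19 (p = 0.0176, exact test) with the wider one and 0.893 at first starts, TATCGATA was 0.91 in the strongest 3063 peaks and 1.20 to 1.30 without a replicate, and GGTCACAC was 1.36 in the strongest 3063 peaks. Gene lists had 201 genes with a summit in any promoter window, against 67 with a one-direction summit. The causes were not tested. Another 154 values kept direction and call. Alternatives for GAGAGAG, for the promoter sequences against outside summits, for first starts and for matching to the nearest summit were chosen after seeing the data. No paired analysis was possible because the study has 1 group. The unknown depth limits what a missing peak can mean.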

Other observations

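A shorter sequence, GCATACTT, was picked after the DNA under the strongest summits had been read, so its shares are a description and support nothing. It overlaps the su(Hw) consensus and was at 167 one-direction summits (8.83%, 7.59 to 10.2), at 2.53% of divergent summits and at 23.2% of summits outside promoters. Of the 7381 one-direction promoters without a summit 0.637% held it, and of the weaker peaks at one-direction promoters 1.56%. Among the 189 one-direction summits in the strongest decile of the list it was at 80 (42.3%, 35.2 to 49.7), and among the 200 in the weakest decile at 4 (2.00%). Of the 105 strongest-decile summits with no consensus at up to 1 mismatch, 29 (27.6%, 19.3 to 37.2) held it, so that 113 of the 189 (59.8%) had one or the other.

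One-direction summits lay near other thresholded summits about as often as the rest: 26.5% had another within 500 bp, beside 26.7% of divergent and 24.0% of outside summits. At Atpalpha the 4 summits stood in 2 such pairs.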
